A study of Rattus norvegicus with 30 samples.

Results

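The aryl hydrocarbon (Ah) receptor genes described here are 7 rat genes taken by symbol: Ahr, Arnt, Ahrr, Cyp1a1, Cyp1a2, Cyp1b1 and Tiparp. They were looked for among 27533 genes or unnamed transcripts measured by 30367 array probes, by matching each probe's transcript to a gene symbol. Of these 7 genes, 6 had a probe, 1 probe each, and Tiparp had no matched probe and is not analysed here. Liver RNA was measured on 30 one-colour microarrays, 1 per male animal, after 7 days on a diet with 1000 ppm phenobarbital (PB) or on the same schedule with no PB (control). Chimeric mice, whose livers carry transplanted rat hepatocytes, gave 7 PB and 7 control livers. Rats with a knockout of the constitutive androstane receptor (CAR KO rats) gave 4 PB and 4 control livers, and Crl:CD(SD) rats, called SD rats here, gave 4 PB and 4 control livers. The labels do not give animal age, the host mouse strain, the share of host cells left in the chimeric livers, the position of the CAR deletion or the number of rat lines that carry it. A chimeric liver also holds mouse cells, and how much mouse RNA binds these rat probes was not tested.

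The Ah receptor (Ahr) is a ligand-activated transcription factor of the basic helix-loop-helix/PAS family. It rests in the cytoplasm with the chaperone Hsp90, binds planar aromatic chemicals and some tryptophan metabolites, and then pairs in the nucleus with Arnt on DNA elements with the core GCGTG. Its best known targets encode the oxidases Cyp1a1, Cyp1a2 and Cyp1b1, and it also switches on its own brakes, the repressor Ahrr, which competes for Arnt, and Tiparp, an ADP-ribosyltransferase that damps the receptor. In liver, hepatocytes make Cyp1a2 without any inducer, whereas Cyp1a1 is low until the receptor is engaged. PB is a classic activator of CAR, another xenobiotic receptor, whose best known targets are Cyp2b and Cyp3a genes.

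The promoters of 4 members are shown because they set the 2 members measured on every array, Cyp1a2 and Ahr, beside the 2 that stayed near background, Cyp1b1 and Ahrr. Each runs 5′ to 3′ on the gene's own strand from 250 bases before to 50 bases after the RefSeq start site (build GRCr8), and capitals mark the receptor core GCGTG read on either strand, which appears as CACGC where it lies on the opposite one.
Cyp1a2 promoter, chr8:66978100-66978399, minus strand: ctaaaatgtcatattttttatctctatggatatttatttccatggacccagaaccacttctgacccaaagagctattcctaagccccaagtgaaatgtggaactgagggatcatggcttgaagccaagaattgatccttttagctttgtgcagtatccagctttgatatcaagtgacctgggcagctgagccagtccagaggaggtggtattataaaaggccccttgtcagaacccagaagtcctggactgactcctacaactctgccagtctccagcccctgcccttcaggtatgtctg
Ahr promoter, chr6:57998852-57999151, minus strand: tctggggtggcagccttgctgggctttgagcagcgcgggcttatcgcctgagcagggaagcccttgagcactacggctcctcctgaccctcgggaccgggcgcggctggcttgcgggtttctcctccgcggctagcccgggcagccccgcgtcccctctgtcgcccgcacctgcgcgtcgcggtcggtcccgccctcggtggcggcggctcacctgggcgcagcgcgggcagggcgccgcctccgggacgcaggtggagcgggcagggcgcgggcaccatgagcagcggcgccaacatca
Cyp1b1 promoter, chr6:21094315-21094614, plus strand: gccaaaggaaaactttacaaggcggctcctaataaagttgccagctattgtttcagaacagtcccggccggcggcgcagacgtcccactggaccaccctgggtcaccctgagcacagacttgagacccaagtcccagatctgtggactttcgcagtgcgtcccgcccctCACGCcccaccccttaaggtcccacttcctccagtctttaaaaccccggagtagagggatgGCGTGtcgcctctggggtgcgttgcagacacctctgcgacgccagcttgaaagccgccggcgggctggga
Ahrr promoter, chr1:30821969-30822268, plus strand: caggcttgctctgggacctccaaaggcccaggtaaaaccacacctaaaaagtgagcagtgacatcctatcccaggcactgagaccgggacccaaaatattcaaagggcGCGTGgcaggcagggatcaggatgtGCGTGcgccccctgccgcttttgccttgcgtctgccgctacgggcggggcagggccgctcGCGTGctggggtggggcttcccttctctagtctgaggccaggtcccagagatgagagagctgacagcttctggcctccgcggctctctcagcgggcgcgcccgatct
The Ahrr window holds 3 core matches, the Cyp1b1 window 2, and the Arnt and Tiparp windows 1 each. The Cyp1a2 and Ahr windows hold 0. Of 33469 RefSeq rat promoters of this length, 29.7% hold at least 1 match. The longer form TNGCGTG, which contains the core, occurs once in the Cyp1b1 window and once in the Ahrr window, and in 4.89% of all the windows. A match is a run of letters and no measure of binding, and the absence of one says only that these letters are not in this window.

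A level here is the log2 of the authors' processed signal minus the array's own 75th percentile, so that 0 is the 75th percentile and each unit is a doubling. A probe counts as well above background on an array where Agilent's flag says so for at least 50% of its spots. Differences were tested with limma over all genes with adequate signal, p-values were adjusted by Benjamini-Hochberg over all of them, and an adjusted p under 0.05 is a call. Each array is a separate animal, so the p-values measure the spread between animals as arrayed here. In bulk liver RNA, fewer cells of a type and less RNA per cell cannot be told apart.

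Between 50.8% and 58.1% of probes were well above background on the chimeric arrays, against 58.7% to 67% on the rat arrays. All 8 hepatocyte markers were well above background on every array of every group. The summed macrophage markers, in multiples of the 75th-percentile signal, were 8.01 to 19.4 in chimeric livers, 30.5 to 58.8 in CAR KO livers and 53.3 to 64.1 in SD livers, and the stellate cell markers were 3.27 to 5.51, 8.51 to 13.1 and 11.3 to 15.7 in the same order. SD and CAR KO arrays lay on 1 slide each, with each diet in its own row of that slide, so that rat model and slide, and diet and row, cannot be told apart. Chimeric PB array 1 shared a slide with the 7 chimeric controls, and the other 6 PB arrays lay on another slide. Nr1i3, the gene of CAR, had another probe that was not tested. By the probe used, the brighter on the rat arrays, it did not separate the knockout: the CAR KO control level differed from the SD control level by -0.05 (adjusted p = 0.908, limma). Where the deletion lies is unknown, so this reading does not test the knockout labels. Cyp2b2, a CAR target, had PB responses of 5.81 in chimeric livers, -0.09 in CAR KO livers (adjusted p = 0.805) and 4.03 in SD livers on the log2 scale.

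By the calls, Ahr rose and Cyp1a2 fell with PB in chimeric livers, and Cyp1a1 rose in SD livers with an adjusted p close to the threshold. No tested member passed in CAR KO livers. Cyp1a1 was too dim for the test in CAR KO and chimeric livers. The Cyp1a2 mean was lower on PB in all 3 models, with no called difference between the responses. In chimeric livers 2 members had enough signal for the test and both were called, where 42.5% of 14642 genes were called (19.2% higher, 23.3% lower). In CAR KO livers 0 of 3 tested members were called with limma, where 0.185% of 17841 genes were called (0.0504% higher, 0.135% lower). An unadjusted p under 0.05 was found for 1 of the 3 (Cyp1a2), and for 2869 of the 17841 genes. In SD livers 1 of 4 tested members was called, Cyp1a1, where 4.18% of 17285 genes were called (2.44% higher, 1.74% lower). The difference between the CAR KO and SD responses was called for 0 of 4 members, where 0.524% of genes were called (0.105% higher, 0.420% lower). Its unadjusted p was under 0.05 for 2 of the 4 (Cyp1a1 and Ahr), and for 2361 of 18113 genes. The difference between the chimeric and SD responses was called for Ahr alone of 4 tested members, where 18.6% of genes were called (6.19% higher, 12.4% lower). The difference between the chimeric and CAR KO responses was called for Ahr alone of 3 tested members, where 18.5% of genes were called (8.04% higher, 10.5% lower). These 3 differences share arrays with each other and with the responses they are made of.

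**Figure D1:**
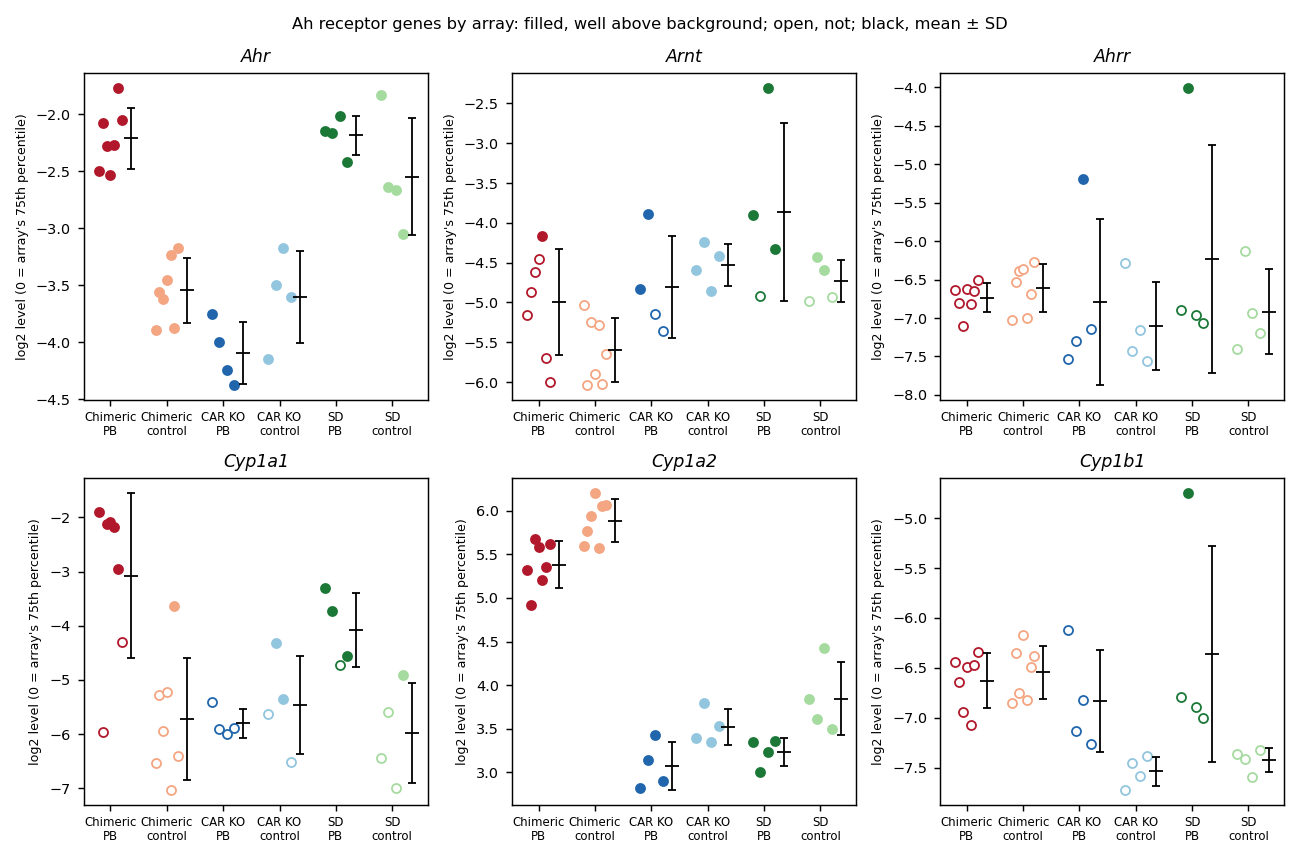
Level of 6 members (log2 of processed signal minus the array's 75th percentile, vertical axis) on every array of the 6 groups, with the group mean and SD in black; filled points were well above background and open points were not. Ahr and Cyp1a2 are filled on all 30 arrays, Cyp1a1 is high in most chimeric PB and SD PB livers, and Ahrr and Cyp1b1 are open except on single arrays.

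The receptor itself was the member with the clearest change. Ahr lay between -2.53 and -1.77 in the 7 chimeric livers on PB, with a median of -2.27, against -3.89 to -3.17 with a median of -3.56 in the 7 chimeric controls. All 7 PB livers stood above all 7 controls, and 12.6% of the genes tested in chimeric livers had diet groups that did not overlap. The mean rose by 1.34 ± 0.149 (SE), or 2.52-fold, with an adjusted p of 1.64e-05 in limma. With normexp it was 0.51 (adjusted p = 0.000358). Within the slide that held both diets, the single PB liver read -2.49, above the whole range of the controls, a difference of 1.05. The fit with the slide as a block returns this same 1.05, since the other slide held PB arrays alone. Both values are thus 1 reading, PB liver 1 against the 7 controls, and the call was not kept in that fit.

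In neither rat model was the Ahr difference called. CAR KO livers had Ahr at -3.75, -4.0, -4.25 and -4.37 on PB, against -4.14, -3.50, -3.17 and -3.61 in controls. The ranges overlapped, with 3 of the 4 controls above every PB liver, and the difference of -0.49 ± 0.241 had an adjusted p of 0.338. In SD livers Ahr was -2.15, -2.16, -2.01 and -2.42 on PB, against -1.83, -2.64, -2.67 and -3.05 in controls. Here control liver 1 was the highest of the 8 and the other 3 controls lay below all PB livers, so the ranges overlapped. The SD difference was 0.36 ± 0.241 with an adjusted p of 0.437.

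The Ahr response in chimeric livers exceeded that in CAR KO livers by 1.82 ± 0.281 (adjusted p = 0.000122, limma). It exceeded the SD response by 0.97 ± 0.281 (adjusted p = 0.0155). With normexp background correction the first difference was 0.65 (adjusted p = 0.00172) and the second 0.28 and no longer called (adjusted p = 0.2), and without SD control liver 1 the second was 0.73 (adjusted p = 0.0524). With the slide as a block the difference from CAR KO was 1.54 (adjusted p = 0.0632) and that from SD 0.69 (adjusted p = 0.736). CAR KO and SD responses differed by -0.85 ± 0.342, with a 95% interval of -1.58 to -0.12 and an adjusted p of 0.313.

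Ahr levels also differed between models. From high to low the group means ran SD on PB (-2.18), chimeric on PB (-2.21), SD control (-2.55), chimeric control (-3.55), CAR KO control (-3.61) and CAR KO on PB (-4.09). Neighbours in this order overlapped except at 1 place, between the SD controls and the chimeric controls. On the control diet, Ahr was lower in CAR KO than in SD livers by 2.08-fold (log2 -1.06 ± 0.242, adjusted p = 0.00405, limma), with no overlap between the groups. In that comparison 33.8% of genes were called (14.2% higher, 19.6% lower) and 34.2% had groups that did not overlap. On PB it was 3.76-fold lower in CAR KO than in SD livers (log2 -1.91 ± 0.24, adjusted p = 3e-05), again with no overlap, where 41.6% of genes were called (16.8% higher, 24.8% lower) and 38.6% did not overlap. With normexp these differences kept their calls at smaller sizes, -0.56 in controls (adjusted p = 0.000807) and -0.93 on PB (adjusted p = 6.62e-06). The macrophage marker sum in CAR KO livers was 30.5 to 49.2 on PB and 38.4 to 58.8 in controls, against 53.3 to 64.1 and 55.9 to 63.6 in SD livers, and its part in the Ahr difference was not tested.

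Chimeric controls had less Ahr than SD controls, by -1.0 ± 0.199 on the log2 scale (adjusted p = 6.95e-05, limma), where 74.2% of genes were called (38.4% higher, 35.8% lower) and 60.6% did not overlap. This call was lost with normexp background correction, where the difference was -0.09 (adjusted p = 0.432). On PB the chimeric and SD livers differed by -0.03 ± 0.198 (adjusted p = 0.913), where 72.4% of genes were called (38.5% higher, 33.9% lower) and 53.7% did not overlap. That value had no settled direction: centring each array on its median gave 0.66 (adjusted p = 0.00583), a choice that moves the median of all genes in this comparison by 0.681. The chimeric arrays also lay on other slides than the rat arrays, so model and slide cannot be told apart. The macrophage and stellate sums given above were lower in chimeric than in SD livers, and their part in these differences was not tested.

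Arnt, the DNA-binding partner of the receptor, was dim and was read by a single spot. In SD livers it was -3.90, -4.92, -2.31 and -4.33 on PB, against -4.98, -4.43, -4.60 and -4.93 in controls, and 1 PB liver, the third, stood well above the other 7. The groups overlapped, and the difference of 0.87 ± 0.44 had an adjusted p of 0.292. In CAR KO livers it was -4.83, -3.89, -5.15 and -5.36 on PB, against -4.60, -4.24, -4.86 and -4.42 in controls, with overlapping groups and a difference of -0.28 ± 0.441 (adjusted p = 0.805). In chimeric livers Arnt was well above background on 1 of 7 PB arrays and 0 of 7 control arrays, so it was not tested there. Its levels were -6.0 to -4.17 (median -4.87) on PB and -6.03 to -5.04 (median -5.65) in chimeric controls. On PB the chimeric livers read below the SD livers by -1.13 ± 0.367 (adjusted p = 0.00769), but that difference turned to 0.26 with normexp, so no direction is given for it, and without SD PB liver 1, 3 or 4 it could not be tested.

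Ahrr, the repressor induced by the receptor, and Cyp1b1, a target more typical of non-hepatic tissue, stayed near background in all models. Cyp1b1 was well above background on 1 array, SD PB liver 2, at -4.75, and lay between -7.72 and -6.12 on all other arrays. Ahrr was well above background on that same array, at -4.01, and on CAR KO PB liver 3, at -5.20, with -7.56 to -6.13 elsewhere. Each of these 3 readings came from 1 of the 2 spots of its probe. In SD PB liver 2 the Ahrr spots read 49.8 and 3.72 and the Cyp1b1 spots 28.2 and 3.93 in processed signal, and in CAR KO PB liver 3 the Ahrr spots read 20.5 and 3.51, the lower spot each time in the range of spots not well above background. In SD and in CAR KO livers all 4 PB readings of Cyp1b1 stood above all 4 controls, at levels mostly near background. Diet groups did not overlap for 11.6% and 10.7% of the genes tested in these models. No fold is given for either gene.

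Cyp1a1, the most inducible of the targets, rose in SD livers on PB and had its highest group mean in chimeric livers on PB. It was -3.31, -3.72, -4.72 and -4.57 in SD livers on PB, against -6.44, -5.59, -7.0 and -4.91 in SD controls. All 4 PB livers stood above all 4 controls, with control liver 4 close to the lowest PB livers. The mean difference was 1.91 ± 0.485 (SE) on the log2 scale with an adjusted p of 0.0419 in limma, and 0.41 ± 0.112 with normexp background correction (adjusted p = 0.0503). In SD livers 11.6% of tested genes had diet groups that did not overlap. The lowest well-above-background level was itself higher on SD PB arrays (-5.486 to -5.235) than on SD control arrays (-6.145 to -5.735). Cyp1b1, near background, had non-overlapping SD diet groups as well. The part of this shift in the Cyp1a1 difference was not tested. The probe was well above background on 3 of 4 SD PB arrays and 1 of 4 SD control arrays, so the gene was tested through its PB group, the size of the difference rests on control signals near background, and no fold is given. The call was close to the threshold: it held in 8 of 17 alternative settings, was lost without SD PB liver 3 or SD control 1, 2 or 3 (adjusted p up to 0.0975), and could not be tested without SD PB liver 1, 2 or 4.

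In chimeric livers Cyp1a1 ranged from -5.97 to -1.90 on PB, with a median of -2.18, against -7.03 to -3.64 with a median of -5.95 in chimeric controls. Of the PB livers 5 stood above every control, PB livers 2 and 7 did not, and control liver 6 was the highest control, so the groups overlapped. The probe was well above background on 5 of 7 PB arrays and 1 of 7 control arrays, short of the 75% of arrays that the test across genes requires. The means differed by 2.65, a size that rests on control signals mostly near background, with an exact two-sided permutation p of 0.00758 over 3432 splits, the smallest possible being 0.000583. Such splits were run for every member with a probe in each model, and their p was not adjusted. The smallest p that 70 splits allow, 0.0286, was reached by Cyp1b1, near background, in both SD and CAR KO livers. Cyp1a1 and Cyp1a2 reached it in SD livers, and Ahr reached 0.000583 in chimeric livers. No other split reached its smallest possible p. Most chimeric PB arrays lay on another slide than the controls, so the Cyp1a1 permutation p cannot tell diet from slide. With all dim probes kept, limma gave an adjusted p of 0.00716, in a fit where 6136 of 27533 genes were called. Within the slide that held both diets, the PB liver, at -1.90, stood above all 7 controls. With normexp correction, which adds an offset to dim signals, the difference of means was 0.70.

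Cyp1a1 is read by 10 spots on each array, so that every liver has repeat readings. In chimeric livers 52 of 69 usable spots were well above background on PB, against 9 of 68 in controls, all 9 of them in control liver 6. For CAR KO livers the counts were 3 of 39 spots on PB and 19 of 38 in controls, 10 of the 19 in control liver 2. SD livers had 27 of 36 on PB and 7 of 38 in controls, 6 of the 7 in control liver 4. Leaving out that 1 liver thus removes most of the passing control spots in each model. The mean processed signal per array, before scaling, was 4.01 to 83.5 in chimeric livers on PB and 2.44 to 23.0 in chimeric controls, and 16.7 to 45.0 in SD livers on PB and 3.59 to 13.8 in SD controls, on a scale where the 75th percentile of all probes was 198 to 569.

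**Figure D2:**
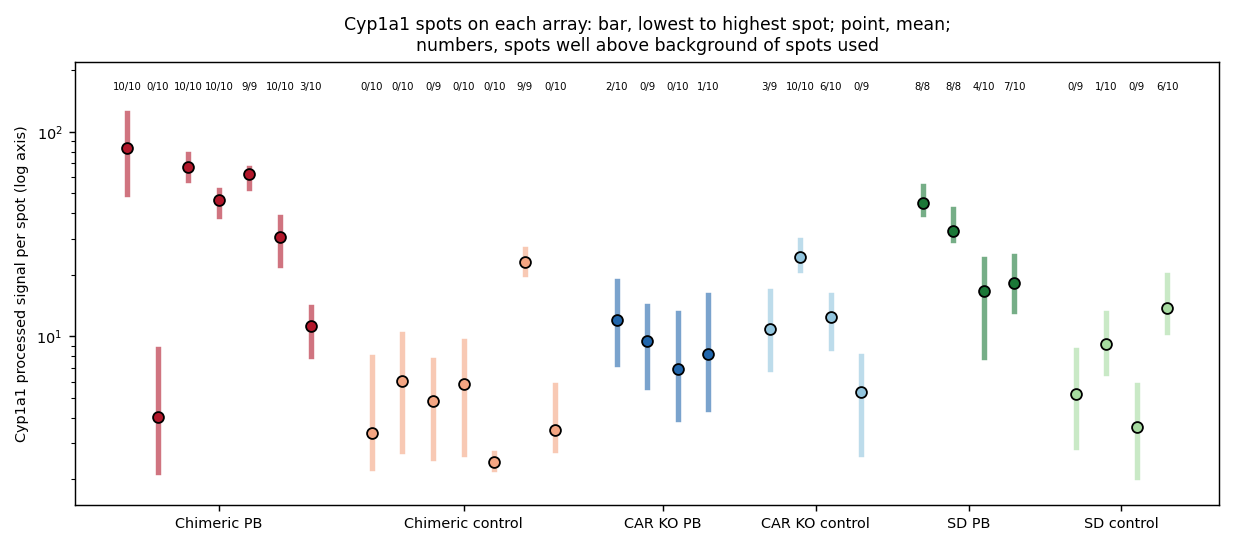
Processed signal of the Cyp1a1 probe on every array (log axis): the bar runs from the lowest to the highest spot, the point is the mean of the spots, and the number gives the spots well above background of those used. In chimeric livers on PB 52 of 69 spots passed, in CAR KO livers on PB 3 of 39 and in SD livers on PB 27 of 36.

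CAR KO livers gave Cyp1a1 readings of -5.41, -5.90, -6.0 and -5.89 on PB, against -5.64, -4.32, -5.36 and -6.52 in controls. None of the 4 PB arrays and 2 of the 4 control arrays were well above background, the groups overlapped, and the PB response was not tested. The response in CAR KO livers differed from that in SD livers by -2.25 ± 0.689 (adjusted p = 0.18, limma) and by -0.46 with normexp (adjusted p = 0.237), so the call was not made. Its size rests on groups near background: 0 of 4 CAR KO PB arrays, 2 of 4 CAR KO control arrays and 1 of 4 SD control arrays were well above it. The chimeric and SD responses differed by 0.74 ± 0.912, with an interval of -1.13 to 2.61 (adjusted p = 0.621). The chimeric and CAR KO responses were not tested against each other, since no group of the pair passed the filter on dim probes.

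Between livers on PB, Cyp1a1 was lower in CAR KO than in SD rats (adjusted p = 0.0109, limma), by at least 2.95-fold in the main processing. That bound does not extend to the normexp value below. No CAR KO array was well above background, and the means were -5.80 ± 0.265 and -4.08 ± 0.678 (SD, n = 4 each). The gene entered this test through its SD PB group alone, with 3 of 4 arrays well above background. The SD mean includes PB liver 3, which was not. All 4 CAR KO livers read below all 4 SD livers, where 41.6% of genes were called (16.8% higher, 24.8% lower) and 38.6% did not overlap. With normexp the difference was -0.52 (adjusted p = 0.00159), with all 30 arrays in 1 fit the adjusted p was 0.105, and without SD PB liver 1, 2 or 4 too few arrays were bright enough for a test. Chimeric livers on PB averaged -3.07 ± 1.52 (SD, n = 7), 1.0 ± 0.643 above SD livers on PB (adjusted p = 0.161). That difference passed the threshold at 0.83 with normexp (adjusted p = 2.89e-05), at 1.59 with quantile normalization (adjusted p = 0.0276), at 1.69 with median centring (adjusted p = 0.0193), and at 1.49 without chimeric PB liver 2 (adjusted p = 0.0174). The Cyp1a1 mean was highest in chimeric livers on PB and next in SD livers on PB, and these groups overlapped. The other 4 groups had at most 2 arrays each well above background and are not put in order.

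Cyp1a2, the hepatocyte oxidase that metabolises caffeine, was by contrast bright on every array, and its mean was lower on PB in all 3 models. In chimeric livers it was 4.92 to 5.67 on PB, with a median of 5.35, against 5.57 to 6.20 with a median of 5.93 in controls. The ranges met between 5.57 and 5.67 and were otherwise apart. The difference was -0.50 ± 0.141 (SE), or 1.42-fold lower on PB, with an adjusted p of 0.00932 in limma. The call was lost with median centring (-0.22, adjusted p = 0.3, limma) and with the slide as a block (-0.57). The block value rests on the 1 PB liver of the shared slide, which read 5.32, below all 7 controls.

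In SD livers Cyp1a2 was 3.34, 3.0, 3.24 and 3.36 on PB, against 3.84, 3.61, 4.43 and 3.50 in controls. All 4 PB livers read below all 4 controls, with control liver 3 standing apart at the top. The difference of -0.61 ± 0.187, 1.52-fold, had an adjusted p of 0.0859 and so was not called. CAR KO livers read 2.82, 3.14, 3.43 and 2.90 on PB, against 3.40, 3.80, 3.34 and 3.53 in controls. The highest CAR KO PB liver overlapped the lowest controls, and the difference of -0.44 ± 0.188 had an adjusted p of 0.266. Diet groups did not overlap for 10.7% of the genes tested in CAR KO livers.

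No difference among the 3 Cyp1a2 responses passed the test. CAR KO minus SD was 0.16 with a 95% interval of -0.41 to 0.74 (adjusted p = 0.854, limma). Chimeric minus SD was 0.10 with an interval of -0.38 to 0.59 (adjusted p = 0.805). Chimeric minus CAR KO was -0.06 with an interval of -0.55 to 0.43 (adjusted p = 0.896). These intervals hold differences about as large as the responses themselves.

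**Figure D3:**
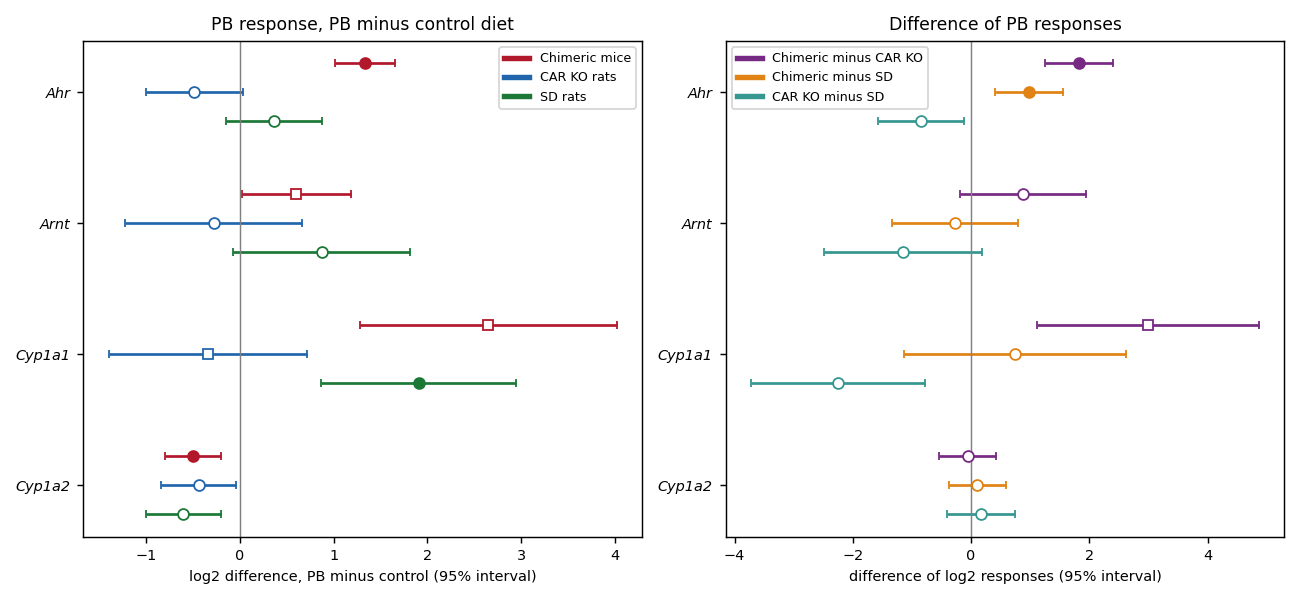
Left, PB response (log2 difference, PB minus control, with 95% intervals) of Ahr, Arnt, Cyp1a1 and Cyp1a2 in each model; right, the differences between those responses. Filled points have an adjusted p under 0.05 and squares were not tested: the Ahr response is 1.34 in chimeric livers, -0.49 in CAR KO livers and 0.36 in SD livers, while the 3 Cyp1a2 responses, -0.50, -0.44 and -0.61, lie side by side.

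The level of Cyp1a2 was higher in chimeric livers than in rat livers. Chimeric controls averaged 5.89 ± 0.244 (SD, n = 7) and SD controls 3.84 ± 0.416 (SD, n = 4), a 4.12-fold difference (log2 2.04 ± 0.167, adjusted p = 4.22e-11, limma). On PB the chimeric livers averaged 5.38 ± 0.266 and the SD livers 3.24 ± 0.163, a 4.43-fold difference (log2 2.15 ± 0.167, adjusted p = 1.35e-11). No chimeric array overlapped any rat array for this gene. Between chimeric and SD livers, 74.2% of genes were called in controls (38.4% higher) and 72.4% on PB (38.5% higher). The groups did not overlap for 60.6% and 53.7% of genes. Over the settings tried, the log2 difference of Cyp1a2 was 1.43 to 2.42 in controls and 1.56 to 2.83 on PB, called each time. The summed hepatocyte markers were 2310 to 3170 in chimeric livers on PB and 2940 to 3220 in chimeric controls, against 2950 to 3090 in SD livers on PB and 3150 to 3350 in SD controls. Slide and model cannot be told apart in this difference either. CAR KO and SD livers differed by -0.33 ± 0.188 in controls (adjusted p = 0.2) and by -0.16 on PB (adjusted p = 0.521).

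Other genes of the pathway were read as 4 lists: 9 genes of the receptor's chaperone complex and coregulators, 7 other basic helix-loop-helix/PAS factors, 14 other target genes of the receptor, and 9 enzymes of tryptophan and kynurenine metabolism, a source of natural ligands. Of these 39 genes 32 had a probe. In chimeric livers 8 of 28 tested list genes were higher and 5 lower on PB, where 42.5% of all tested genes were called. CAR KO livers gave 0 of 29 calls in either direction with limma, where 0.185% of all tested genes were called. Of the 29, 5 had an unadjusted p under 0.05, as had 2869 of all 17841 tested genes. In SD livers 2 of 29 were higher and 3 lower, where 2.44% and 1.74% of all tested genes were.

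In the chaperone list, chimeric livers had 2 of 6 tested genes higher and 1 lower on PB, where 19.2% and 23.3% of all tested genes were, with a median log2 difference of 0.21 against 0.06 over all genes. Hsp90ab1, which encodes a form of Hsp90, rose by 0.41 ± 0.14 (adjusted p = 0.0279, limma) and Ptges3, the p23 co-chaperone, by 0.42 ± 0.148 (adjusted p = 0.0309). Ncoa2, a coactivator, fell by 0.56 ± 0.157 (adjusted p = 0.00988), a call lost with normexp, quantile normalization or median centring. None of the 6 was called in CAR KO or SD livers, where 0 and 1 of them had an unadjusted p under 0.05. Over all tested genes that was so for 2869 of 17841 and 3441 of 17285.

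Among the other PAS factors, Epas1, a hypoxia-inducible factor, rose by 0.66 ± 0.136 in chimeric livers (adjusted p = 0.00131, limma), and Arnt2, a relative of Arnt, fell by 0.64 ± 0.162 (adjusted p = 0.00497). The clock genes Bmal1 and Npas2 had mean levels of -1.32 and -5.04 in chimeric livers on PB, against 1.12 and -2.44 in chimeric controls. Bmal1 differed by -2.44 ± 0.796 (adjusted p = 0.022) and Npas2 by -2.60 ± 0.922 (adjusted p = 0.033). Npas2 was well above background on 1 of 7 PB arrays and 6 of 7 control arrays, so the size of its difference rests on signals near background, and it ranged from -3.62 to -0.74 over the settings tried, with the call kept in 13 of 26. None of these 7 factors was called in CAR KO or SD livers, where 2 and 1 had an unadjusted p under 0.05. Over all tested genes that was so for 2869 of 17841 and 3441 of 17285.

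Among the other receptor targets, Nqo1, a quinone reductase also driven by Nrf2, averaged 1.04 in chimeric livers on PB and -0.03 in chimeric controls, a rise of 1.08 ± 0.224 (adjusted p = 0.00134, limma). Its response was 0.76 in CAR KO livers (adjusted p = 0.534) and 0.54 ± 0.549 in SD livers (adjusted p = 0.628). Ugt1a6, which glucuronidates phenols, rose in SD livers by 0.84 ± 0.166 (adjusted p = 0.0119) and in chimeric livers by 0.31 ± 0.118 (adjusted p = 0.0477), and its value was 0.29 in CAR KO livers (adjusted p = 0.414). Its symbol belongs to a gene cluster with shared exons, so its probe may also read other Ugt1a transcripts.

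Fmo1, a flavin monooxygenase, averaged 1.23 in chimeric livers on PB and 2.79 in chimeric controls, and 0.22 in SD livers on PB and 1.89 in SD controls. It fell by 1.57 ± 0.118 in chimeric livers (adjusted p = 3.93e-07) and by 1.67 ± 0.329 in SD livers (adjusted p = 0.0119), and its CAR KO value was -0.41 (adjusted p = 0.577). The chimeric response was below the CAR KO response by -1.15 ± 0.328 (adjusted p = 0.0148). Fmo1 was the only list gene still called in chimeric livers with the slide as a block (-1.60 ± 0.235, adjusted p = 0.00363). Inmt, an indole N-methyltransferase, rose in SD livers by 2.34 ± 0.548 (adjusted p = 0.0291), with values of 1.5 ± 0.826 in chimeric livers (adjusted p = 0.159) and 0.09 in CAR KO livers (adjusted p = 0.96). Xdh, xanthine dehydrogenase, rose in chimeric livers by 0.64 ± 0.101 (adjusted p = 0.000179), and this response exceeded that of SD livers by 0.73 ± 0.13 (adjusted p = 0.000504). Fgf21, a liver hormone, fell in SD livers by 1.33 ± 0.327 (adjusted p = 0.0365).

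Over all 14 genes of that target list, 12 had a probe, and the median log2 response was 0.31 over 9 tested in chimeric livers, 0.09 over 10 tested in CAR KO livers and 0.21 over 10 tested in SD livers. The same medians over all genes were 0.06, -0.02 and -0.02. The calls in that list were 3 higher and 1 lower in chimeric livers, 0 in CAR KO livers, where 1 gene had an unadjusted p under 0.05, and 2 higher and 2 lower in SD livers. The shares of all tested genes called in these models were 42.5%, 0.185% and 4.18%. In CAR KO livers 2869 of 17841 tested genes had an unadjusted p under 0.05.

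Of the enzymes of tryptophan metabolism, Afmid, which makes kynurenine, rose by 0.88 ± 0.133 in chimeric livers (adjusted p = 0.000133, limma), and Kyat1, which makes kynurenic acid, rose by 1.19 ± 0.376 (adjusted p = 0.0188). Kynu, kynureninase, fell by 0.41 ± 0.106 in SD livers (adjusted p = 0.0446). Tdo2, the hepatic enzyme that opens the pathway, had a CAR KO value of -0.36 (adjusted p = 0.112) and was called in no model. The Afmid response in chimeric livers exceeded that in SD livers by 0.59 (adjusted p = 0.0475) and that in CAR KO livers by 0.85 (adjusted p = 0.00554). Kmo, which makes hydroxykynurenine, was the single list gene whose CAR KO and SD responses differed, by 0.60 ± 0.124 (adjusted p = 0.0495, limma). That p is close to the threshold, and Kmo was called in neither model on its own. For list genes, differences between responses were not rerun in the alternative settings.

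**Figure D4:**
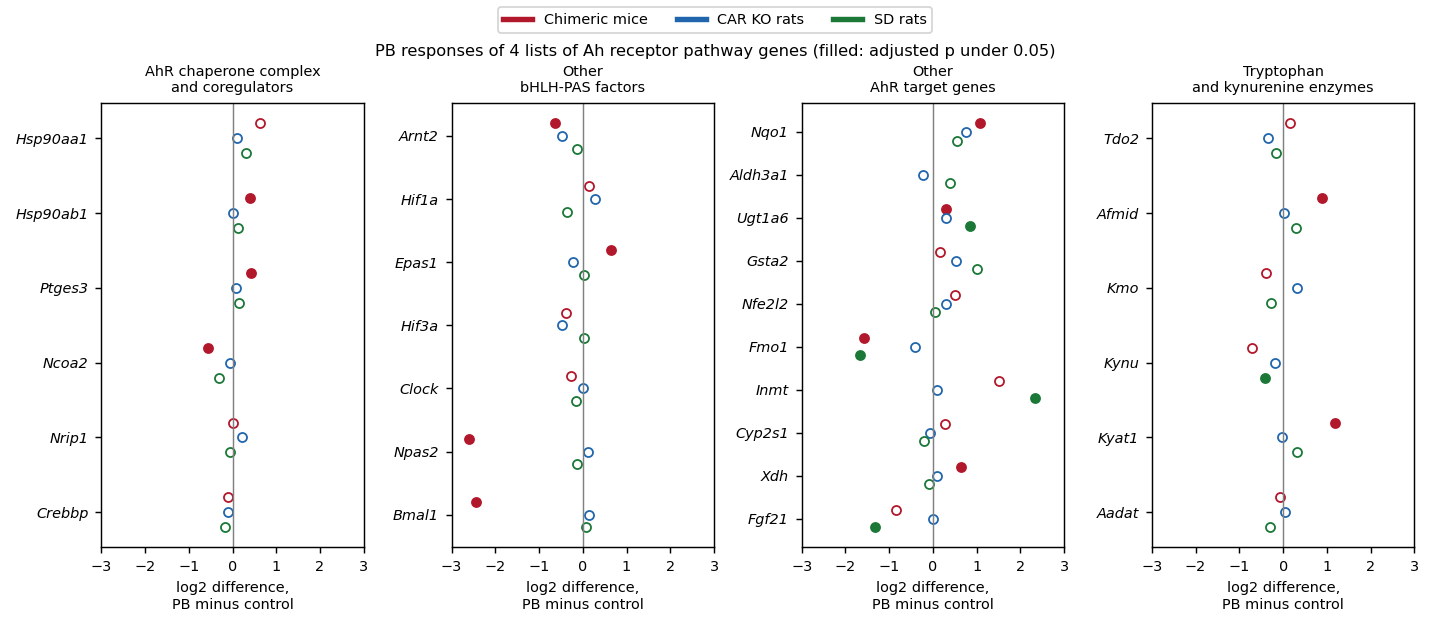
PB response (log2 difference, PB minus control, horizontal axis) of each measured gene of the 4 lists in chimeric, CAR KO and SD livers; filled points have an adjusted p under 0.05. Filled points number 13 in chimeric livers, 0 in CAR KO livers and 5 in SD livers, and Fmo1 is filled at -1.57 in chimeric and -1.67 in SD livers.

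The named genes whose levels followed Cyp1a1 most closely were ranked by Pearson's r over the 16 rat arrays among 18100 candidates and read again over the 14 chimeric arrays. They were Tgm4, a transglutaminase (0.85 in rats, 0.66 in chimeric livers), the cation channel gene Trpc1 (0.83 and 0.25), the retinaldehyde dehydrogenase Aldh1a1 (0.83 and 0.75), the heme A synthesis gene Cox15 (0.82 and 0.71) and the replication factor Rfc2 (0.82 and 0.54). For Cyp1a2 they were Selenoi (0.84 and -0.012), the Ras pathway inhibitor Spred1 (0.83 and 0.36), the dicarboxylate transporter Slc13a3 (0.82 and 0.84), the glycerol kinase Gk (0.82 and 0.45) and the olfactory receptor Olr943 (0.82 and 0.028). Aldh1a1 and Cox15 for Cyp1a1, and Slc13a3 for Cyp1a2, thus kept an r above 0.7 in the arrays that had not been used to rank them. The arrays share models and slides, and both sets hold the same PB and control diets. Most Cyp1a1 readings were not well above background: in rats it was so on 3 of 4 SD PB, 1 of 4 SD control, 0 of 4 CAR KO PB and 2 of 4 CAR KO control arrays. These values thus describe likeness only.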

How the data were processed

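Liver RNA of 30 animals was hybridised, 1 array each, to Agilent one-colour rat arrays. Per the file headers, the authors extracted Cy3 intensity with Agilent Feature Extraction 10.7.3.1, and the processed signal is background-subtracted. The authors' deposited value table holds log2 values that follow the log2 processed signal up to an unstated offset per array (column medians -4.20 to -3.36), so its centring stays unknown. It was used as an alternative only. Each array has 62976 spots, of which 4259 control spots and outlier-flagged spots were left out, and 0 of the remaining spots were saturated.

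Spots of a probe were averaged, log2 was taken and the array's 75th percentile subtracted. Probes were named through RefSeq transcripts (18004 of 30367 probes, 15170 symbols), and each gene was read by 1 probe, its brightest on average over the 16 rat arrays. Genes entered a test if 75% or more of the arrays in at least 1 of the groups compared were well above background. The tests used limma 3.58.1 (lmFit, eBayes) in R 4.3.3 with Benjamini-Hochberg adjustment, on the 16 rat arrays, the 14 chimeric arrays, or all 30 where chimeric and rat livers were compared. An "at least" fold sets the bright group's mean against, on each dim array, the higher of its lowest well-above-background signal and the dim probe itself. Fits were tested on simulated data without slide effects, with changes placed only in genes well above background on 75% or more of the arrays. That trial does not cover dim genes or the part of the slide. Alternatives were normexp background correction (offset 50, on the median signal), quantile normalization, median centring, other filters on dim probes, array weights, slide or replicate blocks, other sets of arrays, another probe or spot summary and each array left out. The array number limits precision.

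The members and lists were chosen with earlier results of these data known, and 1 list gene is not reported here. Named are all members, the list genes called or central to their list, and the 5 named genes most like Cyp1a1 and Cyp1a2. Promoter letters come from RefSeq build GRCr8.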

Additional observations from a re-analysis of the deposited data

Results flagged for a closer look

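In 3 of 36 groups of member readings, 1 array lay far from its group mates by Dixon's test, which chance alone gives in about 1 of 20 groups. Cyp1b1 read -4.75 in SD PB liver 2 and Ahrr read -4.01 in the same liver, and Ahrr read -5.20 in CAR KO PB liver 3. All 3 were the highest of their 4 arrays and the only ones of their group well above background. In each of the 3, 1 of the probe's 2 spots was bright (28.2, 49.8 and 20.5 in processed signal) and the other was not well above background (3.93, 3.72 and 3.51).

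The Ahr response to PB differed between models by a test of the difference itself. It was larger in chimeric than in SD livers by 0.97 and larger in chimeric than in CAR KO livers by 1.82 on the log2 scale. Neither call held with the slide as a block (adjusted p = 0.736 and 0.0632, limma), the part of the slide was not tested further, and only 1 PB array shares a slide with the chimeric controls.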

How the results depend on the processing

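The number of members called in SD livers, 1 (Cyp1a1), was 0 with normexp, the stricter filter on dim probes, array weights, the replicate block, only the arrays compared, all 30 arrays in 1 fit, and every spot well above background, the last chosen after seeing the data, and 0 to 1 over the arrays left out singly. Over all settings the Cyp1a1 difference was 0.41 to 2.27, with adjusted p from 0.0211 to 0.347. In chimeric livers the 2 calls became 1 with median centring, 0 with the slide as a block and 2 to 3 over arrays left out. The Ahr rise there was called in 27 of 28 alternatives (0.51 to 1.62) and the Cyp1a2 fall in 26 of 28. For chimeric minus SD responses the 1 call became 0 with normexp and 0 with the slide as a block (0 to 1 over arrays left out). For chimeric minus CAR KO it became 2 with no filter and 0 with the slide as a block (1 to 2). Between control livers, chimeric against SD, the 2 calls became 1 with normexp and 4 with no filter. Between PB livers, the 2 calls of CAR KO against SD became 1 with the stricter filter, 1 with every spot and 1 with all 30 arrays (1 to 3 over arrays left out), and the 2 of chimeric against SD became 1 with the stricter filter (1 to 3).

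Several uncalled differences changed sign. Over arrays left out, Cyp1a2 ran from -0.031 (without SD control 3) to 0.28 for CAR KO minus SD, from -0.092 (without SD control 3) to 0.22 for chimeric minus SD, and from -0.155 to 0.058 (without CAR KO PB 3; 0.015 without chimeric PB 2) for chimeric minus CAR KO, where it was 0.18 with median centring. Chimeric minus SD, Arnt was 0.040 with quantile normalization and 0.033 with median centring. CAR KO against SD controls, Arnt was -0.083 with normexp. Chimeric against SD on PB, Ahr was 0.20 with normexp, 0.43 with quantile normalization, 0.66 with median centring and 0.18 with array weights, and from -0.104 to 0.033 over arrays left out (above 0 without SD PB 3, chimeric PB 1 or chimeric PB 4). The called Arnt difference there was 0.26 with normexp. Ncoa2 in chimeric livers was 0.022 with the slide as a block. The causes were not tested.

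Among list genes, calls held in only part of the single leave-outs for Inmt (3 of 8), Fgf21 (2 of 8) and Kynu (2 of 8) in SD livers, and for Hsp90ab1 (11 of 14), Ptges3 (7 of 14), Npas2 (5 of 14) and Ugt1a6 (4 of 14) in chimeric livers.

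Over all genes, calls ranged from 184 (only the arrays compared) to 3297 (no filter), main 722, for SD livers; 0 to 250, main 33, for CAR KO livers; 152 (slide block) to 8663 (array weights), main 6220, for chimeric livers; and 39 to 112 (main 95), 45 to 6458 (main 3261) and 198 to 6472 (main 3334) for CAR KO minus SD, chimeric minus SD and chimeric minus CAR KO. CAR KO against SD gave 2118 to 7570 (main 6090) in controls and 2937 to 8848 (main 7007) on PB. Median centring moved the share of higher calls to 71.1% in chimeric livers (main 45.2%), 47.1% in CAR KO livers (main 27.3%; 42.9% with normexp), 70.9% (main 33.3%; 43.8% with quantile normalization) and 69.4% (main 43.3%) for the chimeric differences, and 67.4% and 78.8% for chimeric against SD in controls and on PB (main 51.8% and 53.2%; normexp 69.8% and 70.1%). With normexp it was 27.6% for CAR KO against SD controls (main 42%). Median centring shifts the median gene of the chimeric response by 0.284, and of its differences from SD and CAR KO by 0.302 and 0.241.

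Replicate numbers in the labels showed no clear pairing in rat livers: same-numbered deviations correlated from -0.0734 to 0.0673 in SD and -0.166 to 0.0583 in CAR KO livers. In chimeric livers they correlated from -0.155 to 0.653, and PB livers 4, 6 and 7 were most like the control of their own number. Whether the numbers pair the chimeric livers was not settled. With the number as a block, Cyp1a1 in SD livers was 1.91 (adjusted p = 0.054, limma) with 0 members called, Ahr and Cyp1a2 in chimeric livers stayed called (adjusted p = 0.000329 and 0.00361), and over all genes 553, 25 and 7133 passed in SD, CAR KO and chimeric livers. Signal near background limits Cyp1a1, Arnt, Ahrr and Cyp1b1.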
